A study of Homo sapiens with 12 samples.

Results

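Semaphorins, plexins and neuropilins were followed in HEK293 cells, a human embryonic kidney line, that over-expressed forms of the retroelement-derived gene PEG10. Gene symbols were matched to the family names SEMA3 to SEMA7, PLXNA to PLXND and NRP, which gave 31 of the 26485 genes in the count table. They are 20 semaphorins (7 secreted of class 3, 12 transmembrane of classes 4 to 6 and SEMA7A, which is held by a GPI anchor), 9 plexins and 2 neuropilins. Symbols alone decided which genes belong, but the family and the tests were chosen with earlier results of these data known. RNA was sequenced from wild-type HEK293 cells transfected with 1 of 4 plasmids: HA-tagged LifeAct-Dendra2, a fluorescent actin probe that served as control, PEG10 gag-pol (the full frameshifted protein), PEG10 gag (the shorter protein without pol) or PEG10 NC (the liberated nucleocapsid fragment of gag). Each plasmid was measured in 3 replicates from independent passages, numbered 1 to 3, for 12 libraries of 30625725 to 45316749 counts. All groups share the transfection itself and the endogenous PEG10 of the line, and because whole cultures were lysed, a change in the share of cells and a change per cell cannot be told apart.

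Semaphorins are guidance cues that were found as repellents of growing axons and are also known from vessel growth, immunity and tumours. Plexins are their receptors, whose intracellular part acts on small GTPases and thereby on actin and adhesion. Most class 3 semaphorins need a neuropilin as the ligand-binding part of a receptor complex with a class A plexin, whereas transmembrane semaphorins bind plexins directly and can signal from either cell.

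Promoter sequences are shown for 4 members, PLXNA2, PLXNA4, SEMA4F and SEMA5B, because these were the members called higher with gag-pol and with NC against both control and gag, as described further on. Each run covers 250 bases before to 50 bases after a RefSeq start on GRCh38.p14, 5′ to 3′ on the strand of the gene. Capitals mark GC boxes (GGGCGG or its reverse complement CCGCCC) and CCAAT boxes (CCAAT or ATTGG).
PLXNA2, chr1:208244335-208244634, minus strand: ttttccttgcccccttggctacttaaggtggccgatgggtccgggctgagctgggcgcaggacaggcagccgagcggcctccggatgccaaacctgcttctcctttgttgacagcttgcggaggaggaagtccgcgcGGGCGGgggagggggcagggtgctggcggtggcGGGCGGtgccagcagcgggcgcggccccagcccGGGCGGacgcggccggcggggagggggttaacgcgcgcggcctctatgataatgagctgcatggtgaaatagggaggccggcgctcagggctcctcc
PLXNA4, chr7:132576421-132576720, minus strand: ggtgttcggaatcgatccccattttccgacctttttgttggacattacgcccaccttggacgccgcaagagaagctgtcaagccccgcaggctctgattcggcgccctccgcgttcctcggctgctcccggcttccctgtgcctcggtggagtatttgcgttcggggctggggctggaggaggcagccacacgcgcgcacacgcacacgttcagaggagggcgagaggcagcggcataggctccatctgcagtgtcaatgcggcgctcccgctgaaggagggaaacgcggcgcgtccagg
SEMA4F, chr2:74653997-74654296, plus strand: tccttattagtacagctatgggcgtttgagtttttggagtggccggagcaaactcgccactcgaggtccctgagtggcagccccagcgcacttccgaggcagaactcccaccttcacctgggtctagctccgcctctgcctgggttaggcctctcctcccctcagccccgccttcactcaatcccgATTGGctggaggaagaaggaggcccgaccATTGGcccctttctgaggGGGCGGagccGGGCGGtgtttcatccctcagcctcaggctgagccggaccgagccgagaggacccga
SEMA5B, chr3:123027714-123028013, minus strand: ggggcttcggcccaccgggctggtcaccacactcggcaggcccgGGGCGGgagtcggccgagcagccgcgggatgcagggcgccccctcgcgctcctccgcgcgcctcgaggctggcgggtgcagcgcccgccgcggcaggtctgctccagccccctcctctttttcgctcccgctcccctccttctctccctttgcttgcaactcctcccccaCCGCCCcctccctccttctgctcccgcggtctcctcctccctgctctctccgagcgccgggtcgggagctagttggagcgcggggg
The 4 windows did not share a motif. PLXNA2 held 3 GC boxes, SEMA4F held 2 GC boxes and 2 CCAAT boxes, SEMA5B held 2 GC boxes, and PLXNA4 held neither motif. SEMA5B has 3 RefSeq starts, of which the most CpG-rich is printed. Over the 48 promoter windows found for members, 31 (64.6%) held a GC box and 12 (25%) a CCAAT box, against 45% and 34.6% of all 35116 windows of the same length. No window was found for NRP1, SEMA3A, SEMA6A and SEMA6B, and some members gave several windows, a few of which overlap. The median GC content was 65% in member windows and 58.7% in all windows, and the motif shares were not adjusted for it. The palindromic E-box CACGTG was in 6.2% of the member windows and 7.3% of all windows, and TATAAA in 2.1% and 11.5%.

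In control cells, 5 of the 6 members with the highest level were plexins. Levels between genes were compared as normalised counts (counts scaled by library size and composition) per kb of GENCODE exon, mean ± SD over 3 libraries. PLXNB2, the class B plexin that receives SEMA4C, led all members at 1936 ± 338 per kb, followed by PLXNA1 at 620 ± 150.0 and by the ligand SEMA6B at 589 ± 163. PLXNA3 (461 ± 105), PLXND1 (357 ± 59.2), PLXNB1 (284 ± 79.6), SEMA6A (243 ± 34.7), SEMA4C (234 ± 52.7) and the coreceptor NRP1 (204 ± 46.6) came next. Ranges of neighbours among these 9 overlapped apart from the step down from PLXNB2, while within each library SEMA6B, PLXNA3, PLXND1 and PLXNB1 kept this order. SEMA3C, at 168 ± 73.9 per kb, was the highest secreted member. Lowest of the tested members were SEMA3A (27.6 ± 2.17), PLXNB3 (16.5 ± 5.53), PLXNA4 (11.96 ± 5.28) and SEMA4A (5.36 ± 1.08). SEMA5A had counts of 0 to 18 and was the only member left out of testing, with its 18 counts in gag replicate 2.

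**Figure D1:**
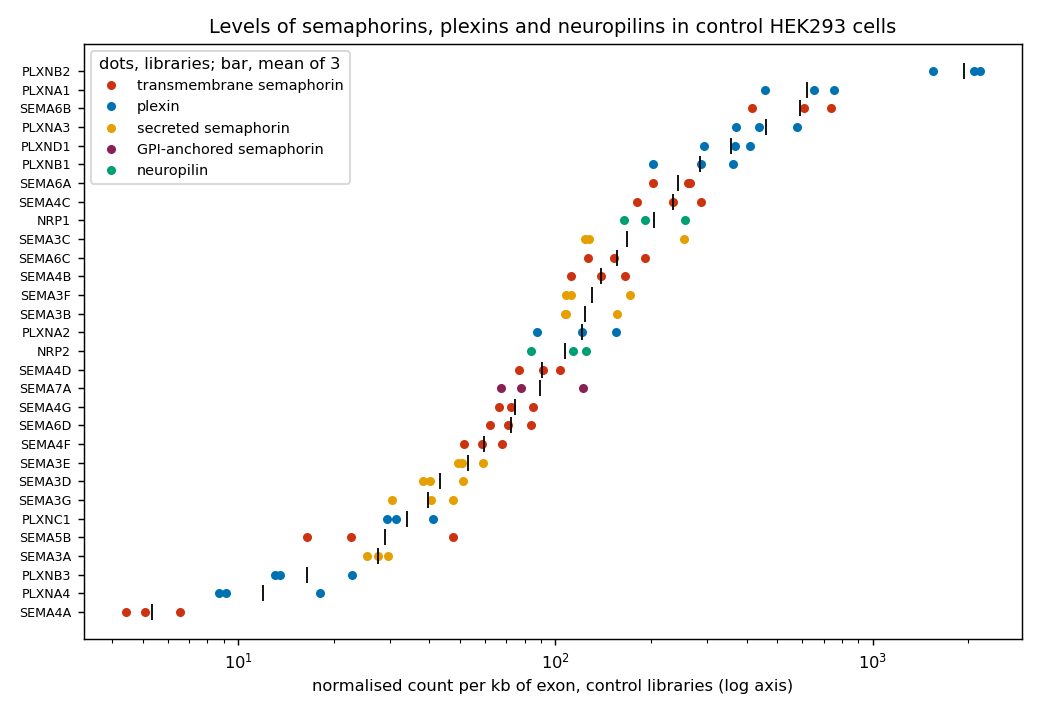
Levels of the 30 tested members (SEMA5A is not drawn) in the 3 control libraries, as normalised count per kb of exon on a log axis; dots are libraries, coloured by class, and bars are means. PLXNB2 stands above every other member at 1936 per kb, and SEMA4A is lowest at 5.36 per kb.

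The family is spread over the genome, with a few members on the same stretch of a chromosome. SEMA3A, SEMA3C, SEMA3D and SEMA3E lie on chromosome 7, between 80742538 (the start of SEMA3C) and 85187056 (the end of SEMA3D) on GRCh38. SEMA3F and SEMA3B lie near each other on chromosome 3, at 50155045 to 50189075 and 50267558 to 50277546. Some members share exon bases with another gene, and whether strand was used in counting was not given in the sources used here. SEMA4G shares 22.9% of its exon bases with MRPL43 on the opposite strand and PLXNB3 shares 20.4% with SRPK3 on its own strand, so their values are uncertain. PLXNC1 and CEP83 share 1.8%, and SEMA6A and its antisense RNA SEMA6A-AS1 share 2.5%.

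PEG10 itself, counted over plasmid and endogenous transcripts together, had 8404 to 12638 normalised counts in controls. The range was 1409241 to 2439086 in gag libraries, 1089346 to 2835976 in gag-pol libraries and 91543 to 146122 in NC libraries, all above every control library. The NC plasmid carries only a short stretch of the gene, and its counts are not comparable with those of the longer inserts.

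With gag-pol, 7 of 30 tested members passed edgeR's quasi-likelihood test against control at a Benjamini-Hochberg adjusted p under 0.05, in a model with construct and replicate number. Of these, 6 were higher (SEMA4F, SEMA5B, SEMA6A, PLXNA2, PLXNA4 and PLXNC1) and PLXNA3 was lower. The share was 23.3%, against a background of 11.3% of 17176 tested genes, 5.48% higher and 5.83% lower. With NC, 6 members passed, 5 higher (SEMA4F, SEMA5B, SEMA6A, PLXNA2 and PLXNA4) and PLXNA3 lower, a share of 20% against a background of 11.2%, 6.04% higher and 5.15% lower. With gag, no member passed, against a background of 1.08%, although 5 had an unadjusted p under 0.05 in edgeR and DESeq2 called PLXNA3 and SEMA3G. The median log2 fold change of members was -0.02 for gag, 0.11 for gag-pol and 0.06 for NC, and that of all tested genes lay between -0.00 and 0.00. These comparisons share their control libraries. Without the replicate number in the model, no member and no gene of the pathway list described later passed in any comparison of constructs, and of all 17176 genes at most 2 (0.0116%) did.

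**Figure D2:**
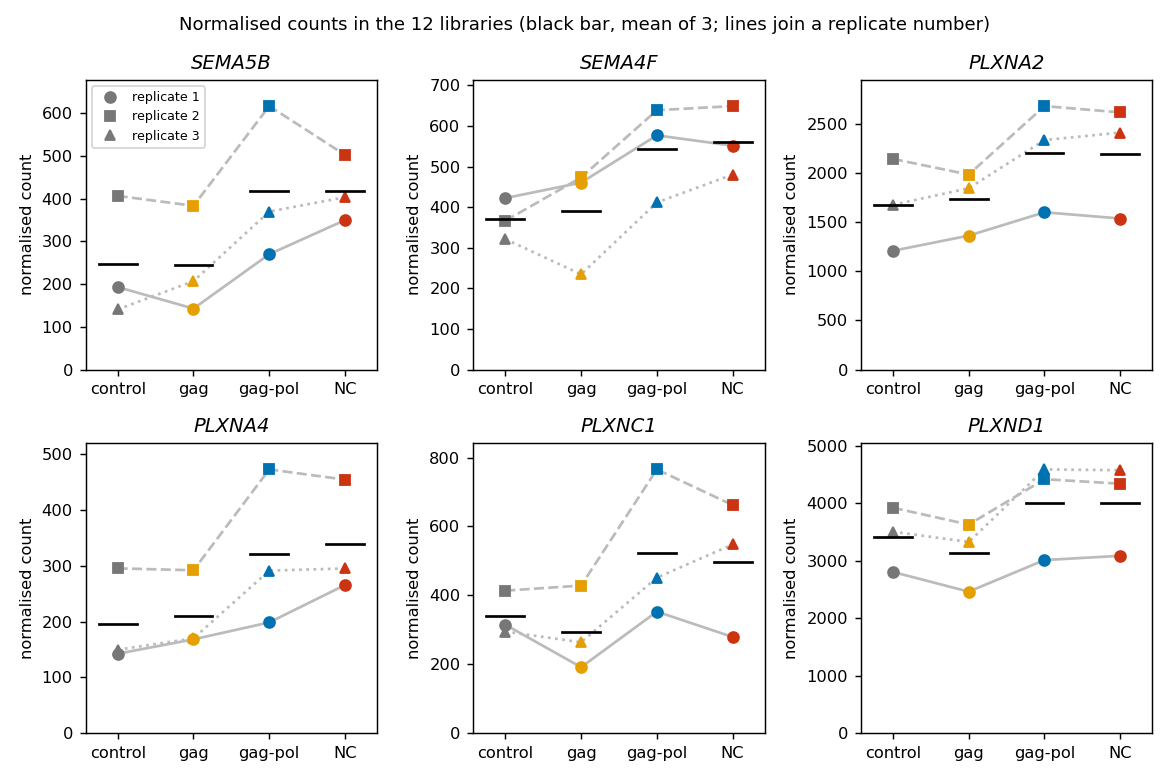
Normalised counts (y axis, from 0) of SEMA5B, SEMA4F, PLXNA2, PLXNA4, PLXNC1 and PLXND1 in the 12 libraries, by construct on the x axis; symbols and grey lines mark the replicate number and black bars the mean of 3. In every panel the means with gag-pol and NC lie above those with control and gag, while replicate 1 lies below replicate 2 with gag-pol and NC throughout.

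Among the ligands, SEMA5B, a transmembrane semaphorin with thrombospondin repeats, had the largest change. Its gene lies on chromosome 3 from 122909082 to 123028605, minus strand. In replicates 1, 2 and 3, its normalised counts were 193, 406 and 141 in control and 143, 383 and 207 with gag. They were 269.9, 617 and 369.7 with gag-pol and 349.7, 502 and 403 with NC. Replicate 2 was highest with every construct, so the ranges overlap, yet gag-pol and NC were above control in each replicate. The log2 fold change was 0.79 (SE 0.19, a 1.73-fold rise, edgeR adjusted p = 0.0095) with gag-pol, 0.86 (SE 0.19, 1.82-fold, adjusted p = 0.0072) with NC and -0.01 (SE 0.19, adjusted p = 0.99) with gag. Leaving out control replicate 3 ended both calls (adjusted p = 0.085 with gag-pol and at most 0.074 with NC), and leaving out NC replicate 1 ended the call with NC.

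SEMA4F, a class 4 transmembrane semaphorin, followed the same order (chromosome 2, 74654228 to 74683853, plus strand). Control libraries had 422, 366 and 321 normalised counts and gag libraries 461, 473 and 235. With gag-pol there were 577, 639 and 412, and with NC 552, 649 and 480.4. NC was above the whole control range, and gag-pol overlapped it through replicate 3 alone. The log2 fold change against control was 0.53 (SE 0.15, adjusted p = 0.021, edgeR) with gag-pol and 0.60 (SE 0.15, adjusted p = 0.013) with NC, and with gag it was 0.03 (SE 0.15, adjusted p = 0.96). The call with gag-pol was lost without control replicate 2 or any gag-pol library (adjusted p up to 0.14), and that with NC without control replicate 2 or NC replicate 3 (up to 0.093).

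SEMA6A, which binds PLXNA2 and PLXNA4, changed less than SEMA5B or SEMA4F. Its normalised counts were 2216, 2888 and 2853 in control, 2771, 3755 and 3441 with gag-pol, 2575, 3274 and 3495 with gag and 2499, 3418 and 3768 with NC. Each PEG10 library was above the control library of its own number. The log2 fold changes were 0.32 (SE 0.08, edgeR adjusted p = 0.0092) with gag-pol, 0.27 (SE 0.08, adjusted p = 0.026) with NC and 0.23 (SE 0.08, adjusted p = 0.16) with gag, and the differences of gag-pol and NC from gag, 0.09 and 0.04, did not pass. Without gag-pol replicate 1 or 2 the call with gag-pol was lost (up to 0.053), and without control replicate 2 or 3 or NC replicate 3 that with NC (up to 0.16). The closely related SEMA6B, the semaphorin with the highest level per kb, did not pass, with 1964, 2867 and 3488 counts in control, 1847, 2703 and 3819.7 with gag-pol, 1813, 2585 and 3488 with gag and 1559.7, 2676 and 3479 with NC. The other 7 transmembrane semaphorins tested did not pass against control, with log2 fold changes from -0.20 to 0.28.

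The secreted class 3 semaphorins, which act at a distance and mostly through neuropilins, gave no calls against control. With none of the constructs did any of the 7 pass, and their median log2 fold change was -0.16 for gag-pol and for NC and -0.01 for gag. The background share of called genes was 11.3% (gag-pol), 11.2% (NC) and 1.08% (gag). At such shares, the absence of calls among 7 genes does not set this class apart from other genes. SEMA3A, the prototype axon repellent, had 256, 235 and 275 normalised counts in control, 231, 206 and 203 with gag-pol, 335, 178 and 229 with gag and 198, 179.5 and 186 with NC. All gag-pol and all NC libraries were below all control libraries, and the gag libraries lay on both sides. Its log2 fold change was -0.44 (SE 0.18, edgeR adjusted p = 0.11) with NC and -0.26 (SE 0.18, adjusted p = 0.36) with gag-pol. Such separation below control was also seen, by a narrow margin, in gag-pol for SEMA3B. It occurred in 6.75% of tested genes with gag-pol and 4.94% with NC. Separation above control occurred in 6.74% and 4.56% of tested genes, and among members for SEMA4F with NC alone. SEMA3G had 155, 204 and 241 counts in control against 106, 124 and 158 with gag, a log2 fold change of -0.62 (SE 0.19, adjusted p = 0.12), and its values of -0.45 with gag-pol and -0.44 with NC did not pass either.

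SEMA7A, the GPI-anchored ligand of PLXNC1, had log2 fold changes of -0.42 with gag, -0.42 with NC and -0.04 with gag-pol, and none passed. Its counts were 255, 296 and 464 in control, 287, 331 and 345 with gag-pol, 209, 207 and 339.6 with gag and 174, 286 and 289 with NC.

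**Figure D3:**
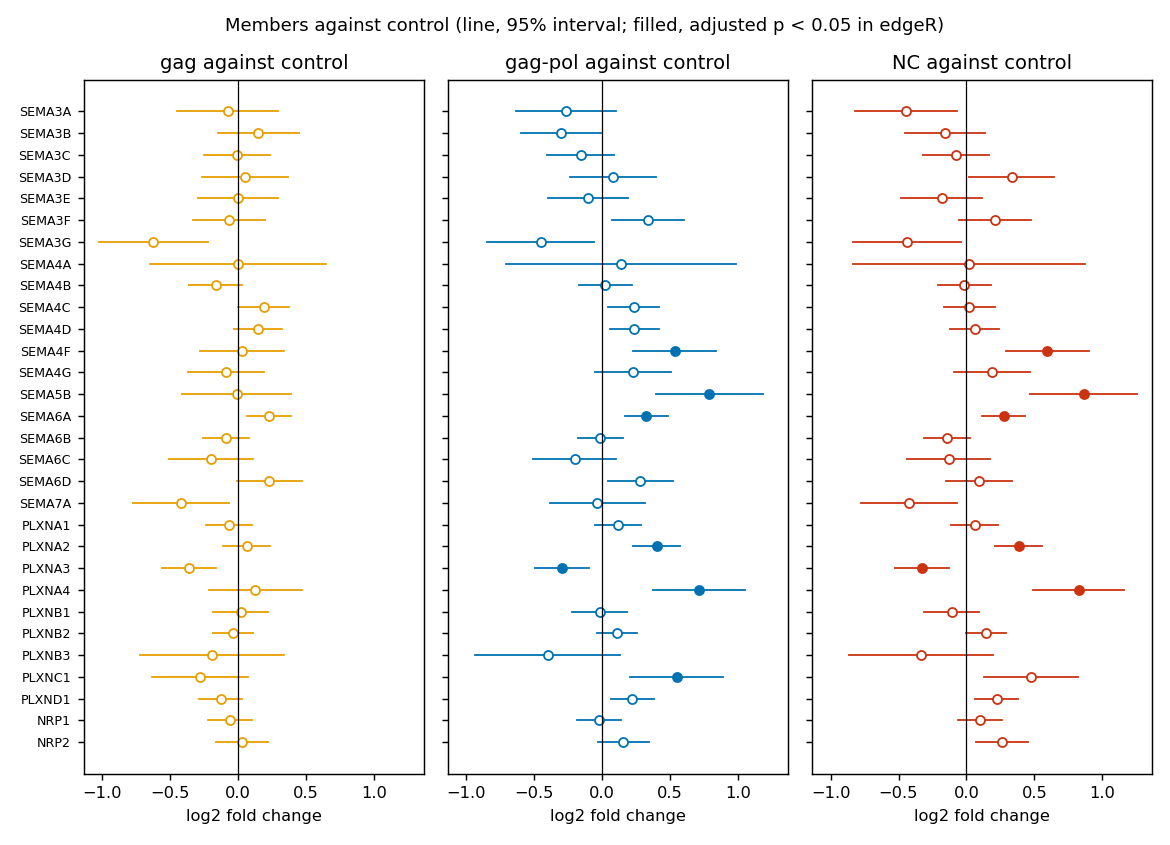
Log2 fold change against control of the 30 tested members (rows, by class) with gag, gag-pol and NC (panels); lines are 95% intervals and filled dots have an edgeR adjusted p under 0.05. The gag panel has no filled dot, gag-pol has 7 and NC has 6, among them SEMA5B and PLXNA4 at the right.

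Among the receptors, the class A plexins divided by gene. PLXNA4, a partner of NRP1 for SEMA3A, had 142, 295 and 149 normalised counts in control, 168, 292 and 169.8 with gag, 198, 473 and 291 with gag-pol and 266, 455 and 295 with NC (chromosome 7, 132123340 to 132648688, minus strand). Replicate 2 was highest with every construct, and within each replicate gag-pol and NC were above control and gag. The log2 fold change against control was 0.71 (SE 0.16, 1.64-fold, edgeR adjusted p = 0.0070) with gag-pol, 0.83 (SE 0.16, 1.77-fold, adjusted p = 0.0036) with NC and 0.13 (SE 0.17, adjusted p = 0.80) with gag. The call with NC held in all 12 fits that left out a library, and the call with gag-pol was lost without gag-pol replicate 3 (adjusted p = 0.05).

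PLXNA2, a receptor of SEMA6A and of SEMA3A with neuropilin, had a smaller and more even rise (chromosome 1, 208022242 to 208244384, minus strand). Its normalised counts were 1209, 2145 and 1677 in control, 1364, 1986 and 1846 with gag, 1601, 2683 and 2337 with gag-pol and 1538, 2618 and 2413 with NC. Ranges overlap because replicate 1 was low throughout, but all replicates rose with gag-pol and NC. The log2 fold changes were 0.40 (SE 0.08, 1.32-fold, edgeR adjusted p = 0.0041) with gag-pol, 0.39 (SE 0.08, 1.31-fold, adjusted p = 0.0064) with NC and 0.06 (SE 0.08, adjusted p = 0.80) with gag. The call with gag-pol held in all 12 fits without a library, and that with NC was lost without control replicate 3 (adjusted p = 0.053).

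PLXNA3, which with NRP2 receives SEMA3F, went the other way (chromosome X, 154458281 to 154477779, plus strand). It had 4327, 5121 and 6749.6 normalised counts in control, 3665, 4529 and 4838 with gag-pol, 3303, 4270.0 and 5022 with gag and 4216, 3521 and 5022 with NC. Each PEG10 library was below the control library of its number. The log2 fold changes were -0.30 (SE 0.10, edgeR adjusted p = 0.047) with gag-pol, -0.36 (SE 0.10, adjusted p = 0.077) with gag and -0.33 (SE 0.10, adjusted p = 0.032) with NC. With gag-pol the call held in 3 of 12 fits without a library (those without gag-pol replicate 2 or NC replicate 1 or 2) and was lost in the others (adjusted p up to 0.23), with NC it was lost without control replicate 2 or 3 or NC replicate 2 or 3 (up to 0.2), and with gag it passed in DESeq2 (adjusted p = 0.027), with no filter on low counts (0.008), with only the compared groups (0.011), with GC and length trends removed (0.046) and without NC replicate 1 (0.037) or 2 (0.017). PLXNA1, the most abundant class A plexin per kb, had log2 fold changes between -0.07 and 0.11 and did not pass.

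PLXNC1, the receptor of SEMA7A, had 315, 413 and 295 normalised counts in control, 191, 428 and 263 with gag, 353, 766 and 451 with gag-pol and 279, 662 and 548 with NC (chromosome 12, 94148577 to 94307675, plus strand). Against control, replicate 1 rose least with gag-pol and was lower with NC and with gag. Against control the log2 fold change was 0.55 (SE 0.17, edgeR adjusted p = 0.034) with gag-pol, 0.47 (SE 0.17, adjusted p = 0.066) with NC and -0.28 (SE 0.17, adjusted p = 0.50) with gag. The call with gag-pol was lost without control replicate 2 or 3 or any gag-pol library (adjusted p up to 0.2).

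PLXND1, the receptor that SEMA3E binds without neuropilin, had 2806, 3926 and 3508 normalised counts in control, 2463, 3632 and 3329 with gag, 3013, 4423 and 4593 with gag-pol and 3088, 4345 and 4580.5 with NC. In every replicate gag was the lowest construct. Neither gag-pol (log2 fold change 0.22, SE 0.08, edgeR adjusted p = 0.062) nor NC (0.22, SE 0.08, adjusted p = 0.061) passed against control. SEMA3E itself did not pass, with log2 fold changes of -0.11 with gag-pol and -0.18 with NC. The class B plexins did not pass against control: PLXNB2 and PLXNB1, the receptor of SEMA4D, lay between -0.11 and 0.14, and the low PLXNB3 had -0.40 (adjusted p = 0.33) with gag-pol.

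The neuropilins did not pass against control with any construct. NRP1, the binding receptor of SEMA3A, had 1892, 2210.3 and 2940.5 normalised counts in control, 1885, 2345 and 2644 with gag-pol, 1865, 2211 and 2643 with gag and 2102, 2531 and 2847 with NC. The libraries differed by replicate number more than by construct, and the log2 fold changes were -0.06 for gag, -0.03 for gag-pol and 0.10 for NC (SE 0.08 each). NRP2, the binding receptor of SEMA3F, had 1167, 1733 and 1582 counts in control and 1302, 2025 and 2103 with NC, a log2 fold change of 0.26 (SE 0.09, edgeR adjusted p = 0.064).

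Directions within replicates were read from the same libraries as the calls and are not separate support. With gag-pol, 14 of 30 members were above control in all 3 replicates and 5 below, against a background of 23% and 23.3% of tested genes. With NC the counts were 10 above and 7 below (background 24.8% and 23.1%), and with gag 4 above and 6 below (19.4% and 17.1%). The 7 below with NC and the 6 below with gag lay near the background. The 14 members above control with gag-pol comprised 6 plexins, 7 transmembrane semaphorins and SEMA3F, and the 5 below were PLXNA3 and the secreted SEMA3A, SEMA3B, SEMA3E and SEMA3G.

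Gag shares its sequence with the start of gag-pol and contains the NC fragment, so gag-pol and NC were also set directly against gag. In both comparisons 6 members were higher and none lower, 20% of those tested: SEMA4F, SEMA5B, PLXNA2, PLXNA4, PLXNC1 and PLXND1. The background was 6.46% of genes for gag-pol against gag and 16.9% for NC against gag, with 3.03% and 8.76% higher and 3.42% and 8.12% lower. Among genes with at least 10 counts in every library, as all tested members have, it was 7.62% and 19.9%. For NC against gag the share of members called was thus near that of such genes. The largest log2 differences from gag were PLXNC1 with gag-pol, 0.83 (SE 0.17, edgeR adjusted p = 0.0068), and SEMA5B with NC, 0.87 (SE 0.19, adjusted p = 0.0042). PLXND1 differed from gag by 0.35 with either construct (SE 0.08, adjusted p = 0.010 with gag-pol and 0.0043 with NC). For PLXNA4 the values were 0.59 and 0.70, for PLXNA2 0.34 and 0.32 and for SEMA4F 0.50 and 0.57. Both comparisons use the same 3 gag libraries. For gag-pol against gag, no member passed when gag replicate 1 was left out, 1 when gag-pol replicate 3 was, and 3 when gag replicate 2 or 3 was. PLXNA2 and SEMA4F were lost without any 1 of the 6 libraries compared (adjusted p up to 0.12 and 0.23), and PLXNA4 without gag-pol replicate 2 or 3 or any gag library (up to 0.22). For NC against gag, PLXNA4, PLXNC1, SEMA5B and PLXND1 passed in all 12 fits without a library, whereas PLXNA2 was lost without gag replicate 2 or NC replicate 3 (adjusted p up to 0.091) and SEMA4F without replicate 3 of gag or NC (up to 0.1). Those 12 fits include the ones without a control or gag-pol library, which are not compared here. Without replicate 1 of every construct, PLXNA2, PLXNA4, SEMA4F and SEMA5B were all lost, and 1 member passed (1.98% of genes).

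No member passed between NC and gag-pol, against a background of 0.0873%. All NC libraries were below all gag-pol libraries for SEMA3A (log2 difference -0.18) and SEMA4D (-0.18), a separation found in 4.13% of tested genes. In edgeR 2 members, SEMA4C and SEMA7A, had an unadjusted p under 0.05, and DESeq2 called none. The intervals of the difference, NC minus gag-pol on the log2 scale, were -0.31 to 0.45 for SEMA5B, -0.21 to 0.44 for PLXNA4, -0.24 to 0.36 for SEMA4F and -0.19 to 0.16 for PLXNA2. Differences beyond these bounds lie outside the 95% intervals, which are not adjusted for the number of genes tested. The smallest difference that could be called with 3 replicates was not computed.

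When the mean of gag-pol and NC was set against the mean of gag and control, which is 6 libraries against 6, 11 members passed, 10 higher and SEMA3B lower. This is 36.7% of members against a background of 24.7%, or of 28.1% among genes with at least 10 counts in every library. The 5 plexins that rose were PLXNC1 (log2 difference 0.65), PLXNA4 (0.71), PLXNA2 (0.36), PLXND1 (0.28) and PLXNB2 (0.15). The semaphorins that rose were SEMA5B (0.83), SEMA4F (0.55), SEMA3F (0.31, edgeR adjusted p = 0.016) and SEMA6A (0.18, adjusted p = 0.017). NRP2, the coreceptor of SEMA3F, rose by 0.19 (SE 0.06, edgeR adjusted p = 0.031). PLXNA2, PLXNA4, PLXNC1, PLXND1, SEMA4F and SEMA5B passed in all 12 fits without a library, and SEMA6A was lost without gag-pol or gag replicate 2 or NC replicate 3 (adjusted p up to 0.053).

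The members called only here had small differences. SEMA3F had 539, 827 and 523 normalised counts in control, 469, 739 and 597 with gag, 621, 827 and 915 with gag-pol and 614, 845 and 713 with NC. SEMA3B, which lies near it on chromosome 3, had 619, 624 and 903 in control and 760.4, 885 and 696 with gag. With gag-pol it had 547, 559 and 618, and with NC 675, 505 and 737. It differed by -0.31 (SE 0.10, edgeR adjusted p = 0.031). So SEMA3F and SEMA3B differed in opposite directions in this comparison. PLXNB2 had 11263, 15791 and 15171 in control, 11722, 14869 and 14352 with gag, 12831, 16501 and 16017 with gag-pol and 13653, 16732 and 15983 with NC. NRP2 had 1175, 1602 and 1819 with gag and 1108, 1923 and 2064 with gag-pol, beside the control and NC values above. SEMA3B with gag-pol lay below all control and all gag libraries, and the ranges of the others overlap. For SEMA3B the margin to control was narrow, with 618.1 at most with gag-pol and 618.6 at least in control. Each call was lost in some of the 12 fits without a library. SEMA3F was lost without replicate 3 of control or gag-pol (adjusted p up to 0.08), and SEMA3B without control replicate 3, gag-pol replicate 1 or 3, gag replicate 1 or 2 or NC replicate 2 (up to 0.15). NRP2 was lost without control replicate 3, gag-pol or gag replicate 2 or 3 or NC replicate 1 or 3 (up to 0.11), and PLXNB2 was kept only without control replicate 3 or NC replicate 2 or 3 (otherwise up to 0.12).

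More members passed for the replicate number than in any comparison of constructs, but the tests differ. The replicate terms were tested together over all 12 libraries. No such test of all constructs together was run, and most comparisons of constructs set 3 libraries against 3. The replicate terms passed for 23 of 30 members (76.7%), against a background of 52.8% of genes. Among genes with at least 10 counts in every library the background was 59.3%. The 7 members that did not pass were PLXNB3, SEMA3A, SEMA3B, SEMA3D, SEMA3E, SEMA4A and SEMA6C. The replicate number took a larger share of the variance of log2 normalised counts than the construct for 25 of 30 members. Over all tested genes it did so for 10620 of 17176. The median share in members was 54.7% against 27.0% (42.3% and 27.9% over all tested genes). These shares were not corrected for the degrees of freedom, which differ between construct, replicate number and the rest. SEMA6B, a ligand of PLXNA4, was the extreme, with 96.0% by replicate number and 1.97% by construct. Its level in replicate 3 was above that in replicate 1 by 0.99 on the log2 scale (SE 0.07). SEMA5B, PLXNA4 and PLXNC1 were instead highest in replicate 2, by 1.05, 0.97 and 0.97 over replicate 1 (SE 0.16, 0.14 and 0.14), and SEMA4F was lowest in replicate 3, by -0.50 against replicate 1 (SE 0.13). The labels describe the replicates as separate passages, and what differed between them was not given.

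**Figure D4:**
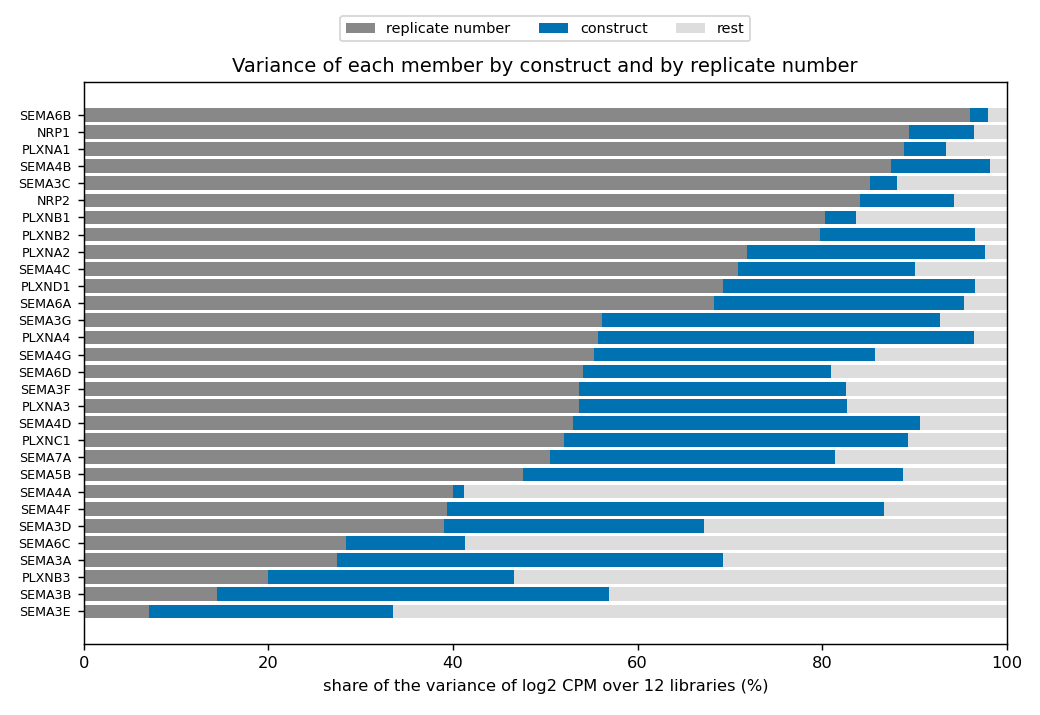
Share of the variance of log2 CPM (counts scaled to library size) over the 12 libraries (x axis, percent) by replicate number, construct and the rest, for the 30 tested members (rows). The replicate number takes a larger share than the construct in 25 members, up to 96.0% for SEMA6B. The construct takes the larger of these shares in SEMA4F, SEMA3A, SEMA3B, SEMA3E and PLXNB3. The rest exceeds both in SEMA3B, SEMA3E, PLXNB3, SEMA4A and SEMA6C.

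The pathway around the receptors was followed with 47 genes of coreceptors, semaphorin processing and intracellular effectors, of which 42 were tested (CHL1, CNTN2, RHOD, TREM2 and TYROBP were too low). Against control, 5 passed with gag-pol (3 higher, 2 lower, 11.9%, near the background of 11.3%), none with gag (background 1.08%) and 7 with NC (5 higher, 2 lower, 16.7%, background 11.2%). With gag-pol the count was 3 without control replicate 2 or 3 or any gag-pol library. With NC, leaving out control replicate 3 gave 1 call, NC replicate 3 gave 3, and any of control replicate 2 and NC replicates 1 and 2 gave 4. With gag, 5 of the 42 had an unadjusted p under 0.05, and DESeq2 called none. Among the called genes of this list, the largest changes were those of MICAL2, an actin oxidase of the family that acts downstream of plexins, at 0.93 (SE 0.22, edgeR adjusted p = 0.015) with gag-pol and 0.94 (SE 0.22, adjusted p = 0.015) with NC. Its relative MICAL1, which binds class A plexins, went down, by -0.62 (SE 0.14, adjusted p = 0.0071) with gag-pol. RND1, a small GTPase that binds plexins, differed by -0.52 with NC (SE 0.16, adjusted p = 0.042), a call that held in 4 of 12 fits without a library (without control replicate 1 or 2 or gag-pol replicate 2 or 3) and was lost in the others (up to 0.34). The MICAL2 call with NC was lost without control replicate 2 or 3 or NC replicate 3 (up to 0.067), and that of MICAL1 with gag-pol without replicate 3 of control or gag-pol (up to 0.065).

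DPYSL4, of the collapsin response mediator proteins that carry the SEMA3A signal to microtubules, had 850.1, 978 and 415 normalised counts in control, 838, 962 and 455 with gag, 1377, 1441 and 975 with gag-pol and 1260.2, 1492 and 888 with NC. Gag lay close to control, and gag-pol and NC were higher in every replicate. The log2 fold change was 0.82 (SE 0.12, edgeR adjusted p = 0.00017) with gag-pol, 0.74 (SE 0.12, adjusted p = 0.00076) with NC and 0.02 (SE 0.12, adjusted p = 0.97) with gag, and both calls held in all 12 fits without a library. Its relatives, named after their values were seen, followed with smaller changes. With NC, DPYSL2 had 0.37 (edgeR adjusted p = 0.0099, lost without control replicate 3 or NC replicate 1, up to 0.1) and DPYSL3 0.31 (adjusted p = 0.028, lost without control replicate 2 or 3 or any NC library, up to 0.21). With gag-pol the values of DPYSL2 and DPYSL3 were 0.24 (adjusted p = 0.073) and 0.21 (adjusted p = 0.13). In the comparison of 6 with 6 libraries, all 5 family members passed as higher (CRMP1 by 0.22, DPYSL2 by 0.39, DPYSL3 by 0.34, DPYSL4 by 0.77 and DPYSL5 by 0.23, edgeR adjusted p up to 0.0070), where 13.1% of all genes did. In that comparison 16 of the 42 passed, 14 higher and 2 lower (38.1%), against the background of 24.7%. Against gag, 5 of the 42 passed with gag-pol, all higher (11.9%, background 6.46%), and 13 with NC, of which 12 were higher (31%, background 16.9%). The 5 became 1 without gag replicate 1 or gag-pol replicate 3, 3 without gag replicate 2 or 3 and 9 without control replicate 3, and the 13 became 5 without gag replicate 1 and 8 without gag replicate 2 or NC replicate 1.

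**Figure D5:**
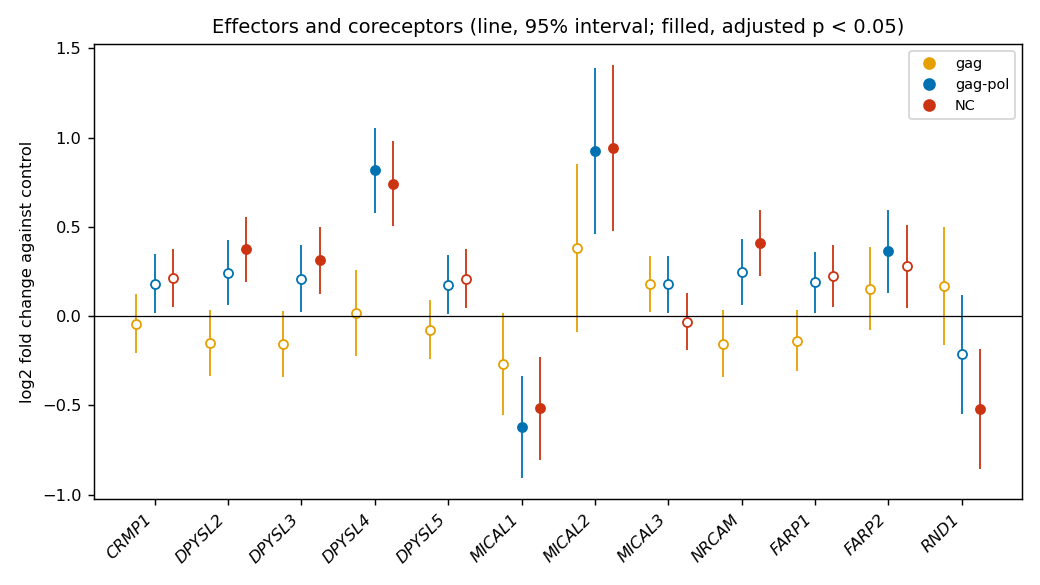
Log2 fold change against control (y axis) of 12 coreceptor and effector genes with gag, gag-pol and NC; lines are 95% intervals and filled dots have an edgeR adjusted p under 0.05. DPYSL4 and MICAL2 lie between 0.74 and 0.94 with gag-pol and NC, MICAL1 lies at -0.62 and -0.52, and no gag dot is filled.

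Of 7 markers of HEK293 cells, 1 was called with gag-pol (higher), against a background of 11.3% of tested genes. None was called with gag (background 1.08%) and 3 with NC (all higher, background 11.2%). All 7 were counted in all libraries, and their summed level was 35010.4 to 43102 normalised counts in control, 39662 to 40286 with gag, 45651 to 47654 with gag-pol and 44892 to 56690.3 with NC. NEFL, a neurofilament gene, rose by 0.56 with gag-pol (edgeR adjusted p = 0.0087) and 0.75 with NC (adjusted p = 0.0024), and with NC the mesenchymal genes VIM (0.36, adjusted p = 0.0097) and CDH2 (0.28, adjusted p = 0.027) rose too. The calls of NEFL held in all 12 fits without a library, that of VIM was lost without control replicate 3 (0.077) and that of CDH2 without control replicate 2 or 3 or any NC library (up to 0.2). KRT8, KRT18, PAX2 and NEFM did not pass, and NEFM had -0.83 (adjusted p = 0.090) with gag-pol and -0.19 (adjusted p = 0.75) with NC. Of 7 markers of other cells, leukocyte PTPRC was at 0 in 10 of 12 libraries and endothelial CDH5 in 4, with at most 6.61 and 9.26 normalised counts. PECAM1, ALB and GFAP stayed under 62 normalised counts, while the neuronal SYP (531 to 1132) and RBFOX3 (227 to 578) were counted throughout. The summed level of these 7 was 1059 to 1522 in control, 1008 to 1552 with gag, 1088 to 1639.6 with gag-pol and 927 to 1394 with NC. Only 5 of these 7 were tested, as PTPRC and CDH5 were too low. Of the 5, RBFOX3 was higher with gag-pol (0.77, edgeR adjusted p = 0.0033) and ALB lower (-2.09, adjusted p = 0.013). None of the 5 passed with gag or NC against control. Their part in the changes of the semaphorins and plexins was not tested.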

How the data were processed

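Messenger RNA libraries were made from 12 HEK293 cultures. The authors aligned reads with STAR 2.7.3 to GRCh38 and deposited featureCounts read counts per gene symbol, not normalised. Annotation release, strand setting and treatment of multi-mapping reads were not given in the sources used here. From these counts, filterByExpr (minimum count 10) left 17176 of 26485 genes. They were tested with edgeR 4.0.16 (R 4.3.3) by the quasi-likelihood test, TMM scaling and a model of construct plus replicate number, with Benjamini-Hochberg adjustment over all tested genes and a call at 0.05. The study's methods also model harvest date. Libraries were paired by replicate number, and residuals of same-numbered libraries correlated at 0.14 to 0.54 (18 pairs) and others at -0.50 to 0.07 (36 pairs). The labels do not state that libraries of the same number share a passage. No libraries were duplicates (chi-square per degree of freedom 31.3 to 104 between replicates). P-values measure the spread between libraries of a cell line that is left after construct and replicate number, with 6 residual degrees of freedom. The spread between replicate numbers is taken up by the model. Members, lists, the pairing of gag-pol with NC and tests were chosen with earlier results of these data known. Every sample's value is given for members called in at least 1 comparison of constructs and for the highest member per kb of each family, and the 3 called pathway genes with the largest change against control are named. Other members with sample values (SEMA3A, SEMA3G and SEMA7A) were chosen after their values were seen. Positions and exon lengths came from GENCODE 44, with 23161 symbols matched, and promoters from RefSeq. Alternatives were RLE scaling, other count filters, PEG10 left out, only the compared groups, DESeq2 1.42.0, no replicate block, leaving out libraries or replicate numbers and, chosen after seeing the data, removal of GC and length trends.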

Additional observations from a re-analysis of the deposited data

How the results depend on the processing

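The 36 calls of members in the 7 comparisons of constructs kept their direction under each alternative in which they were fitted. Fitting only the compared groups covered 25 of the 36, since it was not run for the comparison of 6 with 6 libraries. All 36 stayed past the threshold with RLE scaling, with no filter or a stricter one, with PEG10 left out and in DESeq2, while removal of GC and length trends ended the call of NRP2 (adjusted p = 0.062) and fitting only the compared groups that of PLXNA3 with gag-pol (adjusted p = 0.051).

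Without the replicate block, that is without the pairing by replicate number, no member was called in any comparison of constructs: 0 for gag-pol against control, 0 for NC against control, 0 for each against gag and 0 for the comparison of 6 libraries (gag-pol, NC) with 6 (gag, control). In that fit at most 2 of all 17176 genes (0.0116%) were called in any of these comparisons. Against control with gag, 0 members passed, and 1 (PLXNA3) passed with no filter, with only the compared groups, with GC and length trends removed or without NC replicate 1 or 2, and 2 in DESeq2 (PLXNA3 and SEMA3G).

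Leaving out a library or a replicate number gave 3 to 8 called members for gag-pol against control (3 without gag-pol replicate 1 or 3, 4 without control replicate 2 or 3), 0 to 1 for gag against control, 2 to 8 for NC against control (2 without control replicate 3, 3 without control replicate 2 or NC replicate 3), 0 to 8 for gag-pol against gag, 1 to 7 for NC against gag, 0 for NC against gag-pol, 7 to 12 for the comparison of 6 with 6 libraries (7 without gag-pol replicate 3) and 9 to 24 for the replicate numbers. Over the fits without a library, 88 of 432 calls were lost and none turned direction. Without replicate 1, 23 of the 36 were lost, and 14 each without replicate 2 or 3. Of PLXNA2, PLXNA4, SEMA4F and SEMA5B, leaving out replicate 1 left 2 called with gag-pol and 1 with NC against control, and none against gag. The share of all genes called moved too, from 2.44% to 13.9% for gag-pol against control, 0.127% to 4.26% for gag, 2.1% to 13.5% for NC, 0.0693% to 10.6% for gag-pol against gag, 1.98% to 20.4% for NC against gag, 0% to 3.11% for NC against gag-pol, 13% to 23.2% for 6 with 6 libraries and 21.2% to 53.4% for the replicate numbers. SEMA4A and PLXNB3 had the widest intervals of all members tested.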
